A study of Rattus norvegicus with 12 samples.

Results

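The cytokine and chemokine genes described here are 10 secreted signalling genes of ND7/23 cells, a hybrid line made by fusing rat dorsal root ganglion neurons with mouse neuroblastoma cells. They are the IL-6 family cytokines *Il6*, *Lif* and *Il11*, the alarmin *Il33*, the chemokines *Ccl2*, *Ccl7*, *Cxcl1*, *Cxcl12* and *Cx3cl1*, and the macrophage growth factor *Csf1*. The 10 genes were given by name and matched by symbol in a table of 21556 genes, and all 10 were found. Their NCBI Gene numbers in that table are 24498 (*Il6*), 60584 (*Lif*), 171040 (*Il11*), 361749 (*Il33*), 24770 (*Ccl2*), 287561 (*Ccl7*), 81503 (*Cxcl1*), 24772 (*Cxcl12*), 89808 (*Cx3cl1*) and 78965 (*Csf1*). The study asked how TRPM8, a cold- and menthol-gated cation channel of sensory neurons, acts on Wnt/β-catenin signalling. Cells were left untreated (control), or received 100 μM menthol, 100 ng/ml Wnt3a (a Wnt ligand), or both agents, each for 6 h. RNA was sequenced from 3 libraries per group, 12 in all. The labels number the libraries but do not say whether they came from separate cultures, so p-values measure the spread between these libraries, which may be technical.

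Cytokines and chemokines are small secreted proteins through which cells recruit and instruct leukocytes. CC and CXC chemokines act on G-protein coupled receptors, with CCL2 and CCL7 drawing monocytes, CXCL1 drawing neutrophils and CXCL12 retaining cells that carry CXCR4. IL-6, LIF and IL-11 share the receptor subunit gp130, encoded by *Il6st*, and signal through STAT3, whereas IL-33 is stored in the nucleus, is released on cell damage and signals through ST2, encoded by *Il1rl1*. In sensory ganglia, CCL2, IL-6, LIF, CSF1 and CX3CL1 are known for their roles in the exchange between injured neurons, macrophages and glia.

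Depth was even, with 36914010 to 38836269 reads on genes per library and 16983 to 17386 genes above 0. Values are FPKM, the read fragments of a gene per kilobase of its length, scaled to the library's mapped fragments, so levels may be compared between genes. The label of a sensory neuron hybrid was checked against marker lists, which were chosen with earlier results of these data known. Of 11 neuron markers in the table, 9 were under 0.5 FPKM on average, among them *Tubb3* at 0.0224, *Prph* at 0.0342 and *Stmn2* at 0.0189 FPKM, while *Uchl1* was at 101 and *Isl1* at 13.2 FPKM. Of 10 fibroblast markers, 4 were under 0.5 FPKM, 4 lay between 2.36 and 6.74 FPKM, and *Thy1* averaged 141 and *Col1a2* 115 FPKM. Of 10 macrophage markers, 8 were under 0.5 FPKM, among them the leukocyte gene *Ptprc* at 0.00339 FPKM, with at most 2 reads in any library. The other 2 were *Cd14* at 8.52 and *Cd68* at 1.16 FPKM. Of 7 endothelial markers 6 were under 0.5 FPKM, of 7 glia markers 4 and of 12 skeletal muscle markers 10. The highest of these lists were *Tek* at 3.08, *Gfap* at 1.34 and *Tnnt3* at 7.38 FPKM. The defining neuronal genes were therefore nearly absent from these values, which were made with a rat build. How reads of the mouse parent were assigned is not given. The cells are called by the name of the line only.

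To show the sequence in front of the genes whose levels are described below, 200 bases upstream of 4 start sites are given. *Il33* and *Cxcl12* changed with treatment, while *Il6* and *Cxcl1* both carry an NF-κB match and had the lowest and the highest level among the 7 genes with a promoter entry. The sequences are from RefSeq, build GRCr8, which is not the build of the expression table (mRatBN7.2), and run 5′ to 3′ on the gene's strand up to the base before the start. Of the 10 genes, 7 matched the promoter table by symbol, with 8 starts. *Lif*, *Ccl2* and *Csf1* had no entry. Capitals mark matches to an NF-κB motif, AP-1 (TGANTCA), CRE (TGACGTCA), TCF/LEF (in 4 spellings, namely AACAAAG and its variant ATCAAAG as well as the spelling TACAAAG and its variant TTCAAAG) or, on the gene's strand only, a TATA box (TATAAA). The other motifs were searched on both strands.
*Il33*, the downstream of its 2 starts, chr1:237134746-237134945, + strand: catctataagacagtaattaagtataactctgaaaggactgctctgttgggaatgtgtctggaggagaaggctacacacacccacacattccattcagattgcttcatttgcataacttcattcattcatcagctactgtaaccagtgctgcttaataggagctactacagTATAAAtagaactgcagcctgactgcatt
*Cxcl12*, chr4:152060581-152060780, + strand: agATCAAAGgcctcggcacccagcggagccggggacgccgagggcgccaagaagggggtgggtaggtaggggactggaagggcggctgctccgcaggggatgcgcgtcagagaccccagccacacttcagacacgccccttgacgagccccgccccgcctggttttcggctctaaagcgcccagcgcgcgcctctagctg
*Cxcl1*, chr14:17479322-17479521, − strand: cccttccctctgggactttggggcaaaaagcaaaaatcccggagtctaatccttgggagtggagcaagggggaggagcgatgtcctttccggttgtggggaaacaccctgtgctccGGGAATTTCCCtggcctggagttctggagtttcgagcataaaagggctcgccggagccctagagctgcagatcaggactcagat
*Il6*, chr4:5894576-5894775, − strand: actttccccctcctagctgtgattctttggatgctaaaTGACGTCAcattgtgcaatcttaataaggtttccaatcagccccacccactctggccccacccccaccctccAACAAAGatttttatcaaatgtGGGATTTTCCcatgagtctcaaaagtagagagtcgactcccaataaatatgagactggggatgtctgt

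The *Il6* sequence held an NF-κB match beginning 68 bases before the start, a CRE at 162 bases and a TCF/LEF match at 90 bases. The *Cxcl1* sequence held overlapping NF-κB matches on opposite strands, beginning 84 and 83 bases before the start. *Cxcl12* held a TCF/LEF match at 198 bases, and the downstream *Il33* start held a TATA box at 29 bases. Among the other 4 promoters, *Ccl7* held an AP-1 match at 73 bases, a TATA box at 34 bases and a TCF/LEF match at 241 bases. *Il11* held an AP-1 match at 142 bases and *Cx3cl1* a TATA box at 78 bases, while the upstream *Il33* start held none of the motifs. The AP-1 and CRE motifs can match on both strands at the same bases, and such a match counted once. Over a window from 250 bases before to 50 bases after the start, of 33469 rat promoters 4.18% held the NF-κB motif, 7.33% AP-1, 1.83% CRE, 17.1% TCF/LEF and 8.80% the TATA box. A match describes letters only and was not tested as a binding site.

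Untreated ND7/23 cells expressed these mediators over a wide range. *Ccl2* averaged 367 ± 15.6 FPKM (SD, n = 3) in control, which ranked 171 among all genes and above 99.2% of them. *Cxcl1* followed at 108 ± 3.68 FPKM, then *Cxcl12* at 91.0 ± 1.78, *Csf1* at 58.3 ± 1.37, *Ccl7* at 38.1 ± 3.92, *Il33* at 25.9 ± 1.70 and *Cx3cl1* at 17.6 ± 0.647 FPKM. *Lif* stood at 3.27 ± 0.206 FPKM. *Il11* and *Il6* were the lowest, at 0.589 ± 0.146 and 0.372 ± 0.152 FPKM, and rested on the fewest reads (35 to 94 and 5 to 21 per library over all 12). In this order each gene's control libraries lay wholly below those of the gene above it, except *Il6*, whose libraries overlapped those of *Il11*. On average 7 of the 10 genes were at 10 FPKM or more, 2 lay between 0.5 and 10 FPKM and 1, *Il6*, under 0.5 FPKM.

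**Figure D1:**
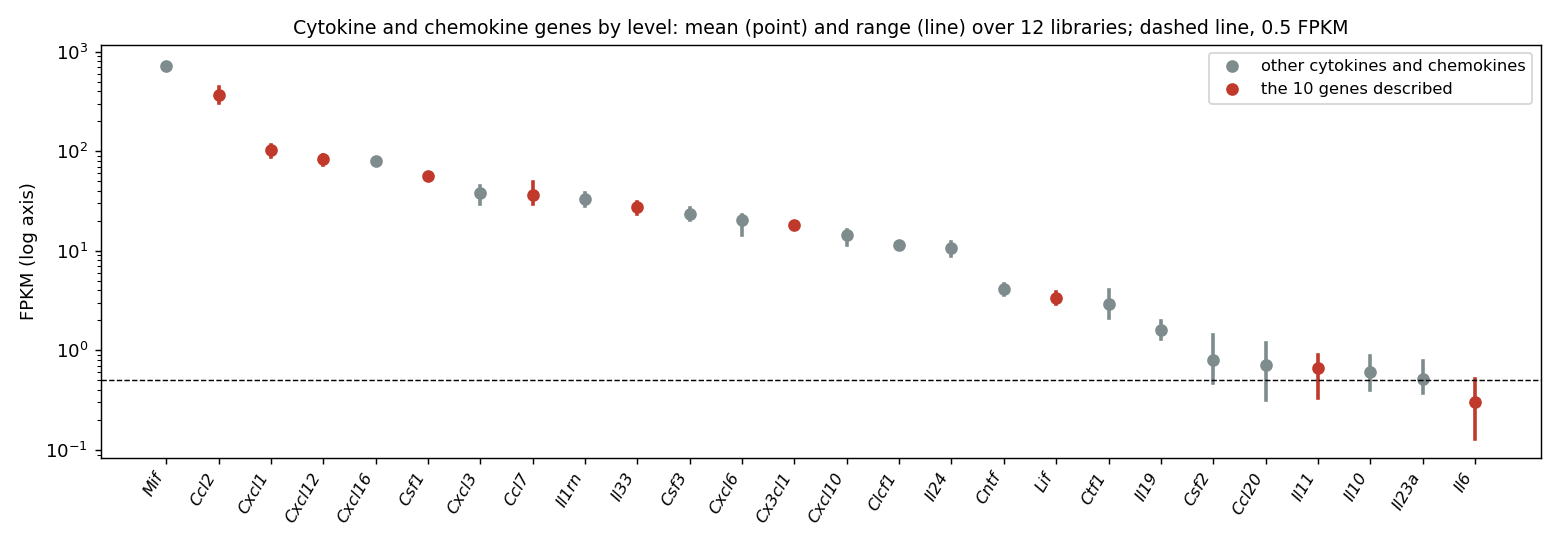
Level of the 10 genes (red) and of the other cytokine and chemokine genes with a mean of at least 0.5 FPKM (grey), in FPKM on a log axis; the point is the mean and the line the range over 12 libraries, and the dashed line marks 0.5 FPKM. *Ccl2* at 365 FPKM was second among the genes shown to *Mif* at 717 FPKM, and *Il6* at 0.303 FPKM lay under the line.

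Among 73 other cytokine and chemokine genes listed, 58 were in the table and 42 of them averaged under 0.5 FPKM. Of the 58 genes, 21 had at most 3 reads in every library, which is the limit set here for calling a gene measurable. The most abundant were *Mif*, an inhibitor of macrophage migration, at 717 FPKM, *Cxcl16*, a membrane-bound chemokine, at 79.1 FPKM, and *Cxcl3*, a neutrophil chemokine, at 38.3 FPKM. Of the receptors through which the 10 genes' products act, 13 of 15 listed were in the table. The ST2 gene *Il1rl1* averaged 126 FPKM, the gp130 gene *Il6st* 50.6 and *Il11ra1*, the specific IL-11 receptor chain, 21.7 FPKM. The IL-6 receptor chain *Il6r* averaged 8.42 FPKM, *Ccr1*, a receptor for CCL7, 3.43, the IL-33 co-receptor *Il1rap* 2.74 and the CSF1 receptor *Csf1r* 0.957 FPKM. The other 6, *Ccr2*, the main CCL2 receptor, *Ccr3*, *Cxcr2*, *Cxcr4*, *Ackr3* and *Lifr*, averaged between 0.00173 and 0.0123 FPKM.

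Differences were tested with limma on log2(FPKM + 0.1), a scale that understates the change of low genes, across 11451 genes that averaged at least 0.5 FPKM. Of the 10 genes, 9 entered the fit and *Il6* did not. A gene passed at a Benjamini-Hochberg adjusted p under 0.05 over all genes tested. Beside the 5 pairwise comparisons, the average effect of each agent was taken over 6 libraries with and 6 without it, and the interaction of the agents was tested. The pairwise comparisons share groups, so their results are not independent of each other.

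For the average effect of Wnt3a, 2 of the 9 genes passed, *Il33* upwards and *Csf1* downwards, where 0.803% of all genes passed. In pairwise tests 1 passed in Wnt3a against control (*Il33*; 0.437% of all genes) and 1 in menthol with Wnt3a against control (*Cxcl12*; 0.83%). None passed for menthol against control (background 0.105%), for menthol added to Wnt3a (0.0524%), for Wnt3a added to menthol (0.0961%), for the average effect of menthol (1.15%) or for the interaction (0%). At an unadjusted p under 0.05 in limma, the counts in these 5 comparisons were 1, 1, 5, 2 and 0 of 9, where 9.34, 14.5, 6.72, 15.5 and 6.99% of all genes tested met that cut. With limma voom on read counts that were recovered from the FPKM values, 0 passed for menthol against control, 0 for menthol added to Wnt3a, 1 for Wnt3a added to menthol, 2 for the average effect of menthol and 0 for the interaction. Voom called 0.524, 1.26, 0.288, 2.64 and 0% of all genes in these comparisons. None of the 9 genes changed by more than 2-fold in any comparison, nor did any other gene called below, so each call below is lost where a change over 2-fold is also required. The other settings counted below are those that act on the adjusted p alone. The median log2 change of the 9 genes was -0.12 for Wnt3a and -0.01 for menthol, beside 0.0032 and -0.00098 over all genes tested. This median describes the genes chosen and was not tested.

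**Figure D2:**
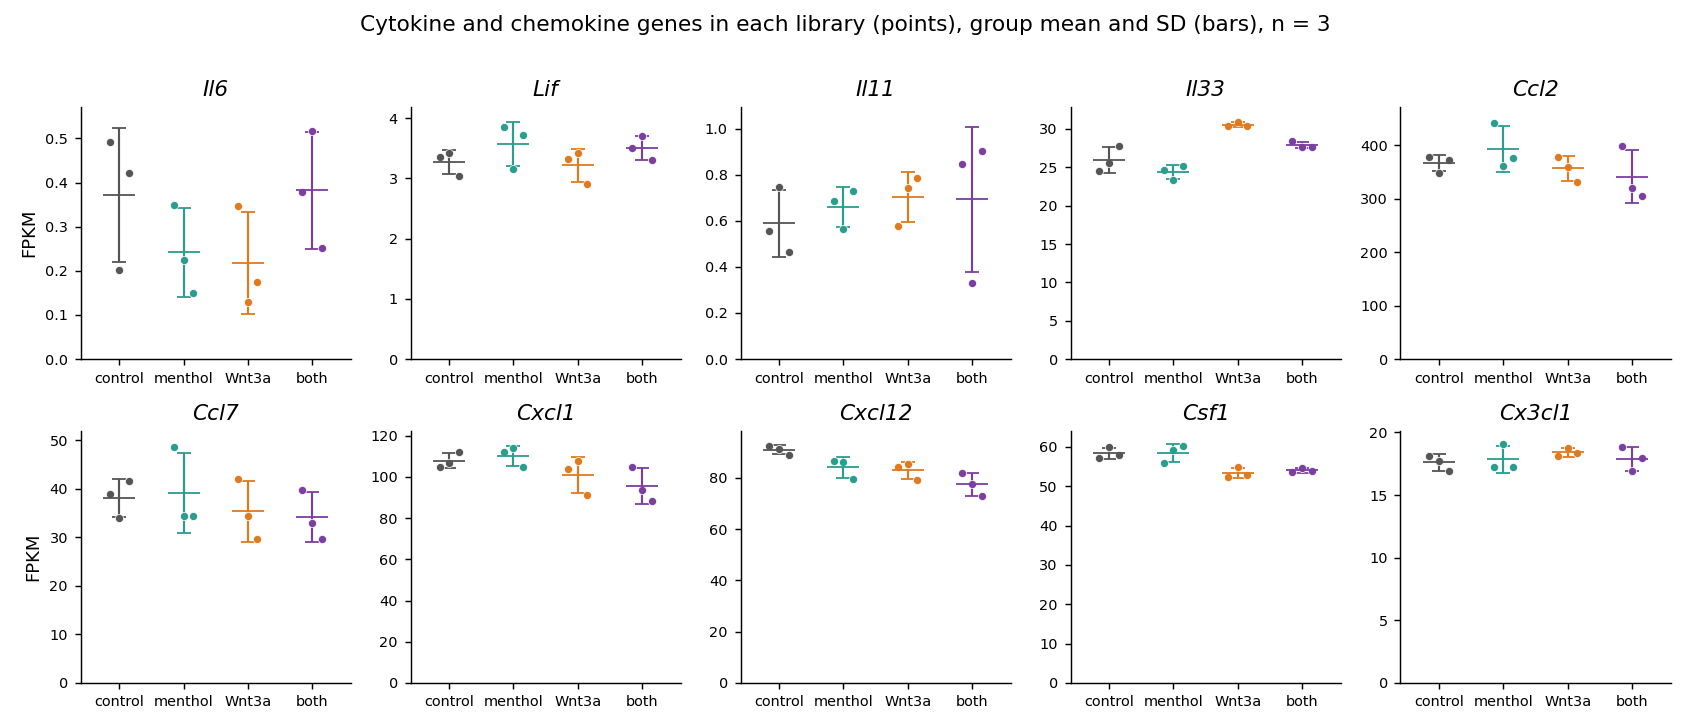
FPKM of each of the 10 genes in the 12 libraries (points, in the order of their replicate numbers), with the group mean and SD (n = 3) as bars, for control, menthol, Wnt3a and both agents. *Il33* was highest in the Wnt3a libraries, at 30.4 to 30.9 FPKM, and *Csf1* was lower in every library that received Wnt3a than in any that did not.

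*Il33* rose with Wnt3a. Its level was 24.5, 25.5 and 27.8 FPKM in control and 24.7, 23.4 and 25.1 FPKM with menthol. It was 30.4, 30.9 and 30.4 FPKM with Wnt3a, and 28.4, 27.6 and 27.7 FPKM with both agents. Every Wnt3a library lay above every control library (20.2% of all genes were separated in this comparison, in either direction), and the libraries with both agents lay above the menthol libraries (11.3%) and below the Wnt3a libraries (17.7%). The libraries with both agents overlapped control, through control replicate 3.

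On average Wnt3a raised *Il33* by 0.22 ± 0.032 on the log2 scale (SE, limma; 1.16-fold; 95% interval 0.15 to 0.28; adjusted p = 0.00529). The adjusted p stayed under the threshold in the 19 other settings that act on it, between 1.14e-05 and 0.0221. Against control alone the change was 0.24 ± 0.045 (limma, adjusted p = 0.0429), and it missed the threshold when control replicate 1 or 2, menthol 2 or 3, Wnt3a 1 or 2, or both agents 2 or 3 was left out (limma adjusted p = 0.0515 to 0.189). On top of menthol, Wnt3a changed *Il33* by 0.19 ± 0.045 (limma, adjusted p = 0.234), which passed with limma voom (adjusted p = 0.0196, in a range up to 0.461 over the settings).

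Menthol gave a value of the opposite sign. Its average effect on *Il33* was -0.11 ± 0.032 on the log2 scale, with a 95% interval of -0.18 to -0.04 (limma, adjusted p = 0.118), and under limma voom it passed (adjusted p = 0.0241, in a range up to 0.228). The interaction was -0.05 ± 0.063, with a 95% interval of -0.18 to 0.09 (limma, adjusted p = 0.896), so a difference in the Wnt3a effect with and without menthol was not detectable. The neuron markers summed to 105 to 114 FPKM in control, 111 to 122 with menthol, 114 to 122 with Wnt3a and 115 to 127 FPKM with both, and the macrophage markers to 9.85 to 10.6, 8.52 to 10.6, 10.4 to 11.6 and 10.2 to 10.6 FPKM. *Uchl1*, at 101 FPKM, gave most of the neuron sum, and *Cd14*, at 8.52 FPKM, most of the macrophage sum. Of the neuron markers 9 of 11 averaged under 0.5 FPKM, and of the macrophage markers 8 of 10, so the sums do not measure cell types. Within the neuron list *Isl1*, a transcription factor of sensory neurons, rose with Wnt3a (0.54 ± 0.051, limma, adjusted p = 0.000173). Its part in the *Il33* result was not tested, and in bulk RNA fewer cells of a type and less RNA per cell cannot be told apart.

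*Csf1*, which sustains macrophages and microglia, was lower wherever Wnt3a was present. It measured 57.2, 59.8 and 57.9 FPKM in control and 55.9, 59.1 and 60.2 FPKM with menthol. It measured 52.4, 54.8 and 52.8 FPKM with Wnt3a and 53.5, 54.6 and 54.0 FPKM with both agents. All 6 Wnt3a libraries lay below all 6 libraries without it, a separation seen in 1.17% of all genes tested, in either direction. The average change was -0.12 ± 0.024 on the log2 scale (SE, limma; 0.920-fold; 95% interval -0.17 to -0.07; adjusted p = 0.0324).

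The *Csf1* call was near the threshold. It was lost when any of 9 single libraries was left out, namely control 1, 2 or 3, menthol 2 or 3, Wnt3a 1, or both agents 1, 2 or 3 (limma adjusted p = 0.0540 to 0.0910). It was also lost without the FPKM minimum (0.0629), with a range of adjusted p over all settings of 0.00357 to 0.0910. The change had the same direction and nearly the same size within each background, at -0.13 ± 0.034 for Wnt3a against control (limma, adjusted p = 0.102) and -0.11 ± 0.034 for Wnt3a added to menthol (limma, adjusted p = 0.456). Menthol did not separate the libraries, and its average effect was 0.01 ± 0.024 with a 95% interval of -0.04 to 0.06.

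*Cxcl12*, the CXCR4 ligand, stepped down from control to the group with both agents. The control libraries held 92.6, 91.3 and 89.1 FPKM, and the menthol libraries 86.7, 86.1 and 79.5 FPKM. The Wnt3a libraries held 84.2, 85.5 and 79.0 FPKM, and those with both agents 81.9, 77.7 and 72.9 FPKM. Each treated group lay wholly below control (20.2% of genes were separated from control with Wnt3a, 15.9% with menthol and 20.5% with both), while the treated groups overlapped one another. With both agents the change from control was -0.23 ± 0.046 on the log2 scale (SE, limma; 0.851-fold; 95% interval -0.33 to -0.13; adjusted p = 0.0359).

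That call was lost when control replicate 1, 2 or 3, Wnt3a 1, or both agents 2 or 3 was left out (limma adjusted p = 0.0510 to 0.132). The single agents gave -0.11 ± 0.046 for menthol (limma, adjusted p = 0.481) and -0.13 ± 0.046 for Wnt3a (adjusted p = 0.190), and the interaction was 0.02 ± 0.065 with a 95% interval of -0.12 to 0.16. The average effects were -0.13 ± 0.032 for Wnt3a (limma, adjusted p = 0.0934) and -0.11 ± 0.032 for menthol (adjusted p = 0.140). Both average effects passed with limma voom (adjusted p = 0.00667 and 0.0241) and with a replicate block (limma, 0.0139 and 0.0310), with ranges over the settings up to 0.209 and 0.272.

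Fibroblast marker levels stand beside the *Cxcl12* result. The 10 fibroblast markers summed to 286 to 293 FPKM in control, 265 to 270 with menthol, 276 to 280 with Wnt3a and 263 to 270 FPKM with both agents. Of the 6 tested, 1 passed in limma with both agents against control (0.83% of all genes) and 1 for menthol on average (1.15%), *Col1a2* each time. In each of these comparisons 5 of the 6 were lower. At an unadjusted p under 0.05 in limma stood 5 of 6 with both agents (13.5% of all genes) and 4 of 6 for menthol (15.5%). By limma voom *Col1a2* and *Col3a1* passed with both agents (2.29% of all genes), and *Col1a1* and *Col1a2* for menthol on average (2.64%). *Thy1* and *Col1a2* gave most of the sum, and *Lum*, *Fap*, *Dcn* and *Postn* each averaged 0.194 FPKM or less. *Col1a2*, a fibrillar collagen chain, fell, with a change of -0.16 ± 0.029 with both agents against control (limma, adjusted p = 0.0200) and of -0.11 ± 0.021 for menthol on average (adjusted p = 0.0251). The values of *Thy1* were -0.08 and -0.06 (limma, adjusted p = 0.223 and 0.146), and *Pdgfrb* was at 0.03 with both agents (adjusted p = 0.928). The part of these genes in the *Cxcl12* result was not tested.

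**Figure D3:**
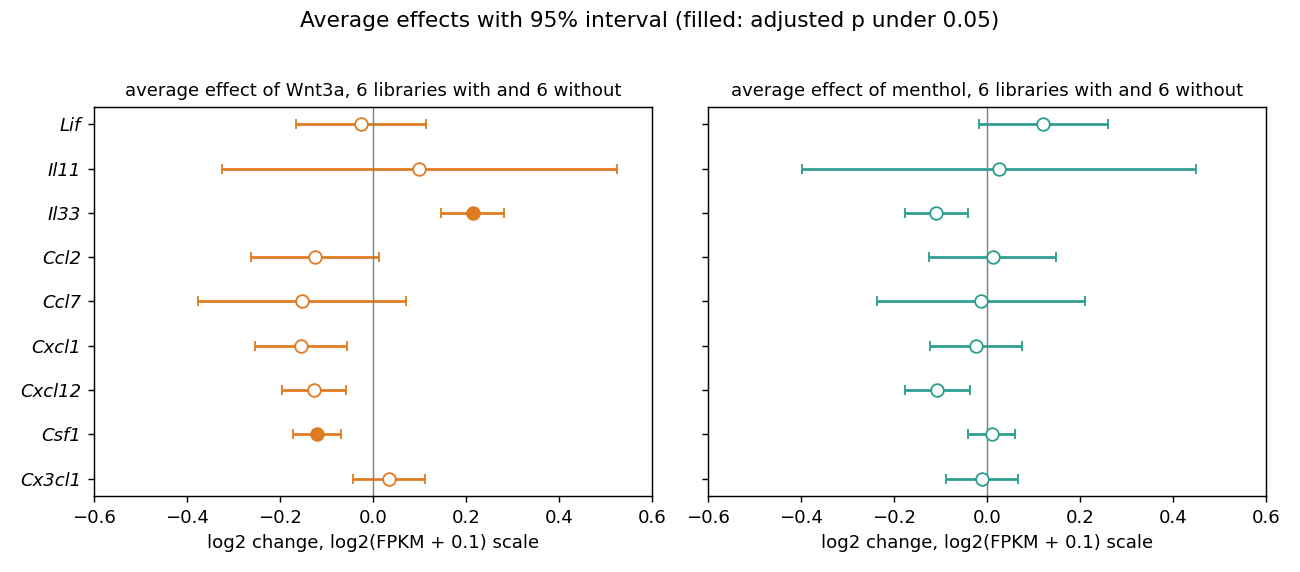
Average effect of Wnt3a (left) and of menthol (right) on the 9 genes tested, as the log2 change between 6 libraries with and 6 without the agent on the log2(FPKM + 0.1) scale, with 95% intervals from limma; filled points had an adjusted p under 0.05. *Il33* at 0.22 and *Csf1* at -0.12 are filled under Wnt3a, and no point is filled under menthol.

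*Ccl2* was abundant and did not pass in any comparison. Its libraries held 378, 349 and 373 FPKM in control, 442, 362 and 376 FPKM with menthol, 379, 360 and 331 FPKM with Wnt3a, and 398, 321 and 306 FPKM with both agents. In each of the 4 groups replicate 1 was the highest, and all 4 groups overlapped. The average effect of Wnt3a was -0.12 ± 0.064, with a 95% interval of -0.26 to 0.01 (limma, adjusted p = 0.402), and that of menthol 0.01 ± 0.064, with an interval of -0.12 to 0.15.

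*Ccl7*, a related monocyte chemokine, ran from 33.8 to 41.6 FPKM in control, from 34.3 to 48.5 with menthol, from 29.6 to 42.0 with Wnt3a and from 29.6 to 39.7 FPKM with both agents. Its average effects were -0.15 ± 0.10 for Wnt3a and -0.01 ± 0.10 for menthol, with 95% intervals of -0.38 to 0.07 and -0.24 to 0.21. The Wnt3a value ran from -0.22 without Wnt3a replicate 1 to -0.07 without menthol replicate 1, and it did not pass with any library left out. *Ccl2* and *Ccl7* varied together within groups. Their deviations from the group means on the log2 scale correlated over the 12 libraries at Pearson r = 0.91 and Spearman rho = 0.93 (exact permutation within groups over 1296 arrangements, two-sided, p = 0.00231 and 0.00154, and 0.0833 and 0.0556 after adjustment over 36 pairs). Without the 2 libraries farthest from the median of *Ccl2*, r was 0.89. None of the 36 pairs of genes passed after adjustment.

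*Cxcl1* held 105, 107 and 112 FPKM in control and 112, 114 and 105 FPKM with menthol. It held 104, 108 and 91.2 FPKM with Wnt3a and 105, 93.6 and 88.2 FPKM with both agents. The groups overlapped, and the lowest values lay in replicate 3 of both Wnt3a-treated groups and in replicate 2 of the group with both agents. The average effect of Wnt3a was -0.15 ± 0.046, with a 95% interval of -0.25 to -0.05 (limma, adjusted p = 0.143), and it passed with limma voom (adjusted p = 0.0297, in a range up to 0.315). For menthol it was -0.02 ± 0.046. Within groups, *Cxcl1* and *Cxcl12* correlated at r = 0.83 and rho = 0.76 over 12 libraries (exact permutation within groups, p = 0.0170 and 0.0293, and 0.306 and 0.503 after adjustment), and at r = 0.74 without the 2 libraries farthest from the median of *Cxcl1*.

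**Figure D4:**
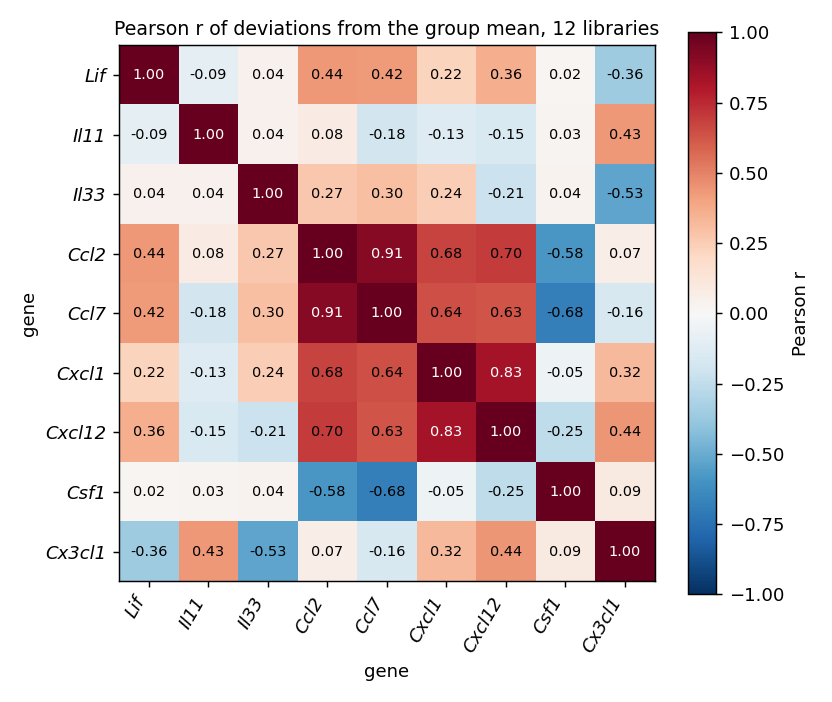
Pearson r between the 9 genes tested, for deviations of log2(FPKM + 0.1) from the group mean over 12 libraries; each square is a pair of genes, red positive and blue negative, with r printed. *Ccl2* and *Ccl7* stand at 0.91 and *Cxcl1* and *Cxcl12* at 0.83.

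*Cx3cl1*, the membrane-anchored chemokine of neurons, had the smallest spread of the 10 genes. Its lowest and highest libraries of the 12 held 16.9 and 19.1 FPKM, a ratio of 1.13. The average effects were 0.04 ± 0.036 for Wnt3a, with a 95% interval of -0.04 to 0.11, and -0.01 ± 0.036 for menthol, with an interval of -0.09 to 0.07. All 4 groups overlapped.

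Of the IL-6 family, *Lif* held 3.36, 3.42 and 3.04 FPKM in control, 3.84, 3.16 and 3.71 with menthol, 3.32, 3.42 and 2.90 with Wnt3a, and 3.50, 3.71 and 3.30 FPKM with both agents. Its average effects were 0.12 ± 0.065 for menthol, with a 95% interval of -0.02 to 0.26 (limma, adjusted p = 0.391), and -0.03 ± 0.065 for Wnt3a. *Il11* rested on 35 to 94 reads per library, and its level ran from 0.330 FPKM, in replicate 2 of both agents, to 0.904 FPKM, in replicate 3 of the same group. Its intervals were wide, from -0.32 to 0.52 for Wnt3a and from -0.40 to 0.45 for menthol.

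*Il6* rested on 5 to 21 reads per library, above the limit of 3 reads. It held 0.493, 0.201 and 0.421 FPKM in control, 0.350, 0.225 and 0.149 with menthol, 0.348, 0.130 and 0.176 with Wnt3a, and 0.378, 0.517 and 0.252 FPKM with both agents. The groups overlapped. In a fit without the FPKM minimum the average effects were -0.03 ± 0.25 for Wnt3a and 0.09 ± 0.25 for menthol, with 95% intervals of -0.59 to 0.52 and -0.46 to 0.64. These averages joined values of opposite sign. Against control Wnt3a gave -0.57 ± 0.35 (95% interval -1.35 to 0.21) and menthol -0.45 ± 0.35 (-1.23 to 0.33). Added to the other agent, Wnt3a gave 0.50 ± 0.35 and menthol 0.62 ± 0.35. The interaction was 1.07 ± 0.50 (95% interval -0.03 to 2.18, limma, adjusted p = 0.863). None of these passed, and changes within these bounds were not detectable at this depth.

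On the receiving side of IL-33 signalling, control cells held *Il1rl1* at 142.5 ± 5.65 FPKM (SD, n = 3), menthol-treated cells at 122.6 ± 2.55, Wnt3a-treated cells at 130.9 ± 4.86, and cells given both agents at 106.4 ± 3.44 FPKM. Every treated library lay below every control library, where each treated group alone was separated from control, in either direction, in 15.9 to 20.5% of all genes. Its average change was -0.26 ± 0.026 for menthol (limma, adjusted p = 0.000562) and -0.16 ± 0.026 for Wnt3a (adjusted p = 0.00998), and for both the adjusted p stayed under the threshold in the 19 other settings that act on it. With both agents it changed by -0.42 ± 0.037 against control (limma, 0.747-fold, adjusted p = 9.29e-05). On average Wnt3a thus moved *Il33* and *Il1rl1* in opposite directions. Pairwise, the *Il1rl1* change did not pass in limma for Wnt3a against control (-0.12 ± 0.037, adjusted p = 0.142) or for Wnt3a added to menthol (-0.21 ± 0.037, adjusted p = 0.0666). Both passed with limma voom. The membrane and soluble forms of ST2 come from the same gene and were not separated in these values.

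Pairwise, *Il1rl1* passed for menthol against control (-0.22 ± 0.037, limma, adjusted p = 0.0468) and for menthol added to Wnt3a (-0.30 ± 0.037, adjusted p = 0.00963). The first call was lost without any of 10 single libraries, all but Wnt3a 3 and both agents 1 (limma adjusted p = 0.0571 to 0.240). The second was lost without Wnt3a 1 or 2 (0.0744 and 0.0999). Counting every other setting, the first was lost in 14 of 20 and the second in 4 of 20. Among the 7 receptor genes tested 1 passed for menthol on average (1.15% of all genes), and 2 passed for Wnt3a (0.803%), all downwards. The other was *Il6st*.

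*Il6st*, the gp130 subunit, held 54.2, 52.9 and 53.6 FPKM in control, 54.0, 52.3 and 52.8 with menthol, 46.6, 44.2 and 48.6 with Wnt3a, and 50.7, 49.3 and 48.0 FPKM with both agents. All 6 Wnt3a libraries lay below the other 6, a separation that 1.17% of all genes showed. The average change with Wnt3a was -0.15 ± 0.025 (limma, 0.898-fold, adjusted p = 0.0108), and in the 19 other settings the adjusted p was at most 0.0401. Against control it was -0.21 ± 0.036 (limma, adjusted p = 0.0354). That call was lost without control 1, 2 or 3, menthol 2 or 3, Wnt3a 1 or 2, or both agents 2 (limma adjusted p = 0.0515 to 0.146). Counting every other setting, it was lost in 10 of 20.

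**Figure D5:**
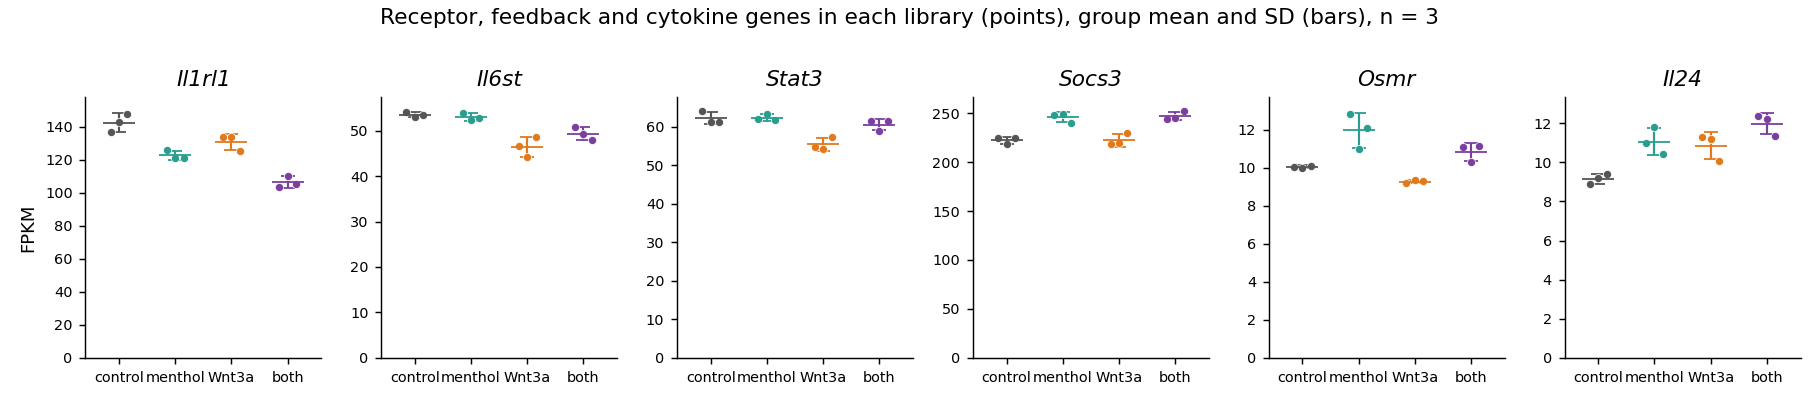
FPKM of *Il1rl1*, *Il6st*, *Stat3*, *Socs3*, *Osmr* and *Il24* in the 12 libraries (points), with group mean and SD (n = 3) as bars. *Il1rl1* fell from 142.5 FPKM in control to 106.4 FPKM with both agents, and *Socs3* was at 240 to 252 FPKM in every menthol library against 218 to 230 FPKM in the others.

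Downstream of gp130, 11 of 12 genes listed as STAT3 targets were tested. In limma 2 passed for the average effect of menthol, both upwards (1.15% of all genes), and 0 for Wnt3a (0.803%). By limma voom 1 passed for Wnt3a, *Stat3* (2.43% of all genes). At an unadjusted p under 0.05 in limma 4 of 11 stood for each agent, where 14.2% of all genes did for Wnt3a and 15.5% for menthol. *Socs3*, the feedback inhibitor of gp130 signalling, was at 218 to 230 FPKM in the 6 libraries without menthol and at 240 to 252 FPKM in the 6 with it, a separation seen in 1.54% of genes in either direction. Its average change with menthol was 0.15 ± 0.020 (limma, 1.11-fold, adjusted p = 0.00407), and in the 19 other settings the adjusted p was at most 0.0161. *Osmr*, a receptor subunit that pairs with gp130, rose by 0.23 ± 0.038 (limma, 1.18-fold, adjusted p = 0.00966).

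With both agents against control, *Socs3* rose by 0.15 ± 0.028 (limma, adjusted p = 0.0218), a call lost without any control library or without both agents 2 or 3 (limma adjusted p = 0.0671 to 0.106). *Stat3* itself averaged 62.1 FPKM in control and 55.4 with Wnt3a (-0.17 ± 0.032, limma, adjusted p = 0.0473), and that call was lost without any single library but Wnt3a 3 (limma adjusted p = 0.0562 to 0.218). Over all 20 other settings, this *Socs3* call was lost in 6 and the *Stat3* call in 14. The most abundant of the list were *Timp1* at 659, *Socs3* at 234 and *Cebpb* at 104 FPKM.

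Of 16 NF-κB target genes tested of 17 listed, 0 passed in any of the 8 comparisons in limma, with 0 to 2 of them at an unadjusted p under 0.05 in each, where 6.72 to 15.5% of all genes were. The most abundant were *Sod2* at 171, *Icam1* at 75.0 and *Nfkbia* at 71.4 FPKM. With limma voom 0 of the 16 passed in each of the 8 comparisons. Of all genes tested, limma called 0 to 1.15% and voom 0 to 2.65% in these comparisons. The median log2 change of the list was -0.01 for Wnt3a and -0.03 for menthol, beside the values over all genes given above.

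Among the other cytokines 1 of 16 tested passed in limma, *Il24*, an IL-10 family cytokine. *Il24* passed with both agents against control (0.83% of all genes) and for menthol on average (1.15%). With limma voom *Cxcl6*, a neutrophil chemokine, also passed, at -0.37 ± 0.083 with both agents against control (adjusted p = 0.0114), at -0.38 ± 0.083 for menthol added to Wnt3a (0.0166) and at -0.26 ± 0.058 for menthol on average (0.0104). In limma its adjusted p in these comparisons was 0.107, 0.132 and 0.0927. *Il24* held 8.89, 9.20 and 9.39 FPKM in control, 11.0, 11.8 and 10.4 with menthol, 11.3, 11.2 and 10.1 with Wnt3a, and 12.3, 12.2 and 11.3 FPKM with both agents. Every treated library was above every control library. Of all genes, 20.2% were separated from control with Wnt3a, 15.9% with menthol and 20.5% with both, in either direction. The share for all treated libraries at once was not computed. Against control, both agents raised it by 0.38 ± 0.059 (limma, 1.30-fold, adjusted p = 0.00684), and in the 20 other settings the adjusted p was at most 0.0447. The average effect of menthol was 0.20 ± 0.042 (limma, adjusted p = 0.0318), and that of Wnt3a was of similar size, at 0.18 ± 0.042, but did not pass (adjusted p = 0.0658). The call for menthol was lost without any single library except menthol 3 and both agents 3 (limma adjusted p = 0.0520 to 0.0860) and with limma voom (0.0550). Counting every other setting, it was lost in 12 of 19.

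In the wider KEGG set of cytokine and receptor interactions, 89 of 221 genes were tested. For the average effect of Wnt3a 3 rose and 3 fell, and for menthol 2 rose and 2 fell, where 0.803% and 1.15% of all genes passed. *Il33*, *Csf1*, *Il1rl1* and *Il6st* are among the 6 for Wnt3a, and *Il24*, *Osmr* and *Il1rl1* among the 4 for menthol. The set's median log2 change was -0.02 for Wnt3a and -0.01 for menthol.

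For the 3 members that passed, the genes with the most similar profile over the 12 libraries were taken by Pearson r on the log2 scale, as a description over libraries that share the treatments. *Il33* was followed by *Prdm1* (r = 0.95), *Rab13* (0.92) and *Tmem158* (0.92). *Csf1* was followed by *Septin11* (0.96), *Hmga2* (0.93) and *Sgk1* (0.88). *Cxcl12* was followed by *Nudt4* (0.96), *Sqle* (0.93) and *Arpc4* (0.92).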

How the data were processed

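RNA of ND7/23 cells was sequenced as paired-end reads in 12 libraries, 3 in each of 4 groups, and groups and replicate numbers were taken from the labels. The deposited FPKM values were made by the authors, with fastp for filtering, HISAT for alignment and HTSeq for counts per gene. The submitters' processing notes name the rat build mRatBN7.2, while the line also has a mouse parent. How mouse reads were assigned, the annotation and the tool versions are not given in the sources used here. Replicates were not pooled.

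The 10 genes and the gene lists were chosen with earlier results of these data known. Genes with a mean of at least 0.5 FPKM (11451 of 21556) were tested on log2(FPKM + 0.1) by limma 3.58.1 (R 4.3.3), fitting all 4 groups at once, a variance trend, no replicate block and Benjamini-Hochberg adjustment at 0.05. The alternatives were pseudocounts of 0.01 and 1, no FPKM minimum or a minimum of 1, centred libraries, a replicate block, only the groups compared, a change over 2-fold, limma voom on recovered reads, and each library left out. The FPKM of a gene are multiples of what 1 read is worth, so reads could be recovered, and they were whole for 100% of genes (relative tolerance 1e-06), of which 1804 had reads in a single library. The fit and the recovery were tested on simulated data. The floor of 3 reads is 0.0772 to 0.0813 FPKM on a gene of 1 kb and, like read numbers, covers counting error only.

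The text names all 10 genes, of each other list the 3 with the highest level and up to 3 with the lowest adjusted p among those that passed, for each of the 10 genes that passed the 3 genes most like it, and markers where they check the cell type. *Cxcl6* and the receptors other than *Il1rl1*, *Il6st* and *Il11ra1* are named outside this rule, after their values were seen. No columns of other samples were present, and the annotation columns were used for symbols and the KEGG set only. FPKM is relative to the library's total, so a rise of abundant genes lowers all others.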

Additional observations from a re-analysis of the deposited data

How the results depend on the processing

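Counts below are of the 9 genes tested that passed. Wnt3a against control gave 1, but 0 without the FPKM minimum, 0 with only the groups compared, 0 with a change over 2-fold and 3 with limma voom on recovered reads. Menthol with Wnt3a against control gave 1, but 0 without the minimum, 0 with only the groups compared and 0 over 2-fold. The average effect of Wnt3a gave 2, but 1 without the minimum, 0 over 2-fold and 4 with voom. Wnt3a added to menthol gave 0, but 1 with voom, and the average effect of menthol 0, but 2 with voom. Leaving out 1 library gave 0 to 1, 0 to 1 and 1 to 2 for the first 3 of these. Voom also called more of all genes tested, 278 against 92 for the average effect of Wnt3a and 302 against 132 for menthol. The cause of these differences was not tested, except that leaving out a library or other groups removes samples from the fit and dropping the minimum adds genes to it. With a replicate block 1 gene passed for the average effect of menthol, *Cxcl12*, and 3 for that of Wnt3a, with *Cxcl12* added. Over all genes tested, same-numbered deviations correlated at -0.06 to 0.15, with 1 of 18 pairs over 0.1, while 7 of 12 libraries correlated best with their own number. For *Cxcl12* replicate 3 was the lowest in each of the 4 groups, and for *Ccl2* replicate 1 was the highest in each. The part of replicate number in the values of single genes and in their correlations within groups was not tested. Signs turned when 1 library was left out for values near 0, with ranges of -0.0456 to 0.0496 (*Ccl2*), -0.0955 to 0.0530 (*Ccl7*), -0.0011 to 0.0258 (*Csf1*), -0.0346 to 0.0095 (*Cx3cl1*), -0.0593 to 0.0047 (*Cxcl1*) and -0.0827 to 0.22 (*Il11*) for menthol, and -0.0090 to 0.30 (*Il11*) and -0.0670 to 0.0098 (*Lif*) for Wnt3a. The direction of *Il33* for Wnt3a, *Csf1* for Wnt3a and *Cxcl12* for both agents was the same under each alternative run. Centring moved the median of all genes by at most 0.014 on the log2 scale. The order of the 10 genes' levels in control was the same on the TPM scale. TPM is FPKM rescaled per library, so the order within a library could not differ and this is no check. Read numbers limit *Il6* and *Il11* most.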
